A study of Mus musculus with 6 samples.

Results

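Iron is taken up, stored, oxidised and exported by a small set of proteins, and 10 of their genes were followed here in the cervical spinal cord of mice with an imiquimod-induced dermatitis. They were chosen by symbol as genes of iron storage (Fth1, Ftl1), uptake (Trf, Tfrc, Slc11a1, Slc11a2, Steap4), export and oxidation (Slc40a1, Cp) and heme breakdown (Hmox1). Earlier results of these data were known when they were chosen. All 10 were found among the 54532 Ensembl genes of the deposited tables, and 9 of them were abundant enough to be tested. The mice were C57BL/6, with age and sex not given in the sources used here. On the shaved nape, 3 mice received 50 mg of a cream with 5% imiquimod, an agonist of Toll-like receptor 7, once a day for 2 days, and 3 mice received the same amount of vehicle cream. RNA was sequenced from 1 whole cervical cord sample per mouse, and the SD values below therefore describe differences among animals. In such bulk tissue, a change in the number of cells of a type and a change in RNA per cell cannot be told apart.

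Cells bind iron carried by transferrin through the transferrin receptor, move it out of endosomes through a divalent metal transporter, and lock what they do not use inside ferritin, a shell of heavy and light chains. Ferroportin is the exporter, and ceruloplasmin oxidises the released iron so that transferrin can bind it. In the central nervous system transferrin is made largely by oligodendrocytes, transferrin receptor is prominent on the endothelium of the blood-brain barrier, and microglia and macrophages recycle iron from heme. During inflammation macrophages are known to withhold iron, by holding more ferritin and less ferroportin.

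Many of these transcripts carry an iron-responsive element, a hairpin with a CAGTGN or CAGAGN loop that iron regulatory proteins bind when iron is scarce. In a 5′ UTR a bound element blocks translation, and in the 3′ UTR of transferrin receptor it protects the transcript from decay. The elements are shown because they place the members in these regulatory classes. They were searched in UTRs of GENCODE M21 transcripts (GRCm38) as a C, 5 bases, the loop, and 5 bases that pair with the former at 4 or more positions. In the sequences, given 5′ to 3′ on the transcript strand, capitals mark the 6-base loop.

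Fth1, 5′ UTR, chr19:9982732-9982760, plus strand: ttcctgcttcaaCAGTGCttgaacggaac
Ftl1, 5′ UTR, chr7:45459779-45459807, minus strand: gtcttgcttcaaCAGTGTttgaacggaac
Slc40a1, 5′ UTR, chr1:45925465-45925493, minus strand: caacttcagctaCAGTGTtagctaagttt
Tfrc, 3′ UTR, chr16:32631160-32631188, plus strand: atttatcagtgaCAGAGTtcactataaat
Tfrc, 3′ UTR, chr16:32631219-32631247, plus strand: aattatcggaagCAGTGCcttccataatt
Tfrc, 3′ UTR, chr16:32631598-32631626, plus strand: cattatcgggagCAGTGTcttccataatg
Tfrc, 3′ UTR, chr16:32631663-32631691, plus strand: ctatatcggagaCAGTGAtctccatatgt
Tfrc, 3′ UTR, chr16:32631710-32631738, plus strand: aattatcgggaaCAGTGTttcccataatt
Slc11a2, 3′ UTR, chr15:100395153-100395181, minus strand: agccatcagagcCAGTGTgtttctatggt

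The ferritin elements were identical at 26 of 29 bases, and each matched that of Slc40a1 at 13. The 5 elements of Tfrc lay within 579 bases and shared 16 to 25 of 29 bases pair by pair. Cp had a match in its 3′ UTR as well (chr3:20006866-20006894). Below the unpaired C, the lower stem paired at 5 positions in Slc40a1 and in each element of Tfrc, at 4 in both ferritins, and at 1 in Slc11a2 and Cp. No match was found in the UTRs of Trf, Slc11a1, Steap4 and Hmox1. The search is permissive, since 9.97% of 21157 coding genes with a UTR held at least 1 match, and a match is a description rather than a proven element. RNA level and translation are separate readouts, and the values below are RNA levels only.

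The whole series comprised these 6 libraries, with 18174411 to 20672881 fragments assigned to genes in the vehicle and 21242415 to 23200996 in the imiquimod libraries, as recovered from the values. Markers of the labelled tissue were present in every library. The 6 neuron markers summed to 1029 to 1085 FPKM in vehicle and 766 to 962 FPKM in imiquimod mice. Rbfox3 and Elavl3 of that list were called lower by the test described below. The 6 astrocyte markers summed to 911 to 965 FPKM in vehicle and 865 to 1015 FPKM in imiquimod mice. Of these, Aldh1l1 was called higher, and Gja1 and Slc1a2 were called lower. Imiquimod replicate 2 stood apart in markers of nerve roots and meninges, and values without it are given beside the members it affects.

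Expression is given as FPKM, the fragments of a gene divided by its exon length in kilobases and by a scale for the library. Groups were compared with limma on log2(FPKM + 0.1) over all 16513 genes with a mean of at least 0.5 FPKM in either group, and p-values were adjusted over all of them (Benjamini-Hochberg, threshold 0.05). Log2 changes are imiquimod minus vehicle ± SE on that scale, on which changes of low genes come out too small. The SE is that of limma, which draws the variance of each gene toward a trend over all genes. Of the 9 members tested, 4 were higher in the imiquimod cords (Slc11a1, Hmox1, Trf and Ftl1) and 1 was lower (Slc40a1). Over all genes tested, 14.1% were called in either direction, 8.74% higher and 5.34% lower (1444 and 882 genes, or 1335 and 1287 after quantile normalization). The median log2 change was 0.64 over the 9 members and -0.01 over all genes. In 7 of the 9 the groups did not overlap, as in 37.9% of all genes tested. Since the members were chosen with earlier results of these data known, their shares and median are no independent result. The count of members depended on single libraries. It was 2 higher and none lower without vehicle replicate 1 or 2, 3 higher and none lower without vehicle replicate 3 or imiquimod replicate 1, and 4 higher and none lower without imiquimod replicate 3. Without imiquimod replicate 2 it was 4 higher (Cp in place of Trf) and 2 lower (Slc40a1 and Tfrc). Slc11a1 and Hmox1 were called with every library left out in turn.

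**Figure D1:**
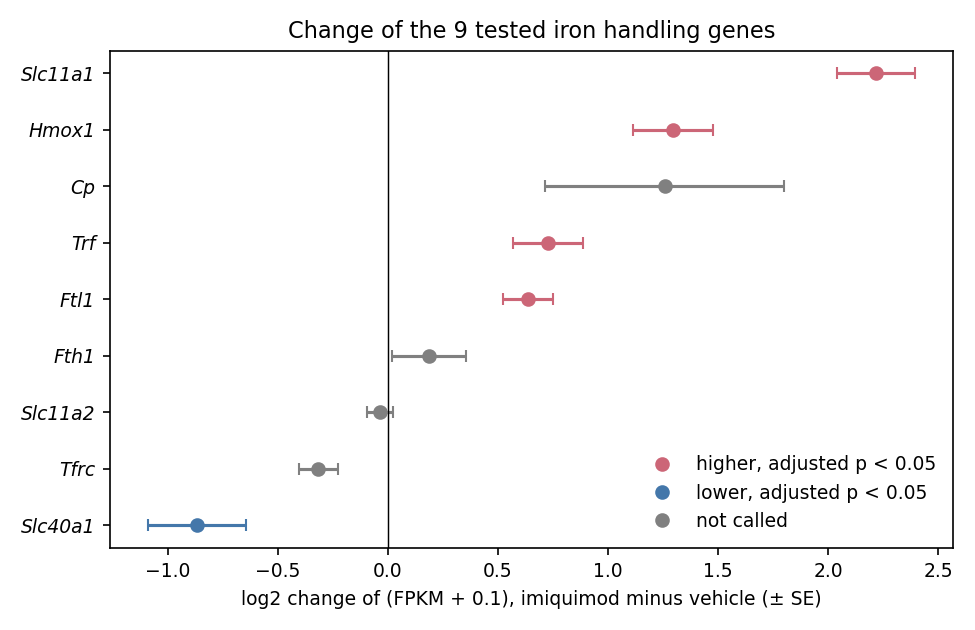
Log2 change of (FPKM + 0.1), imiquimod minus vehicle, for the 9 tested members on the x axis (points, with SE as bars), coloured by call. Slc11a1 changed most among them, by 2.22, and Slc40a1 was the lower call, at -0.87.

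Ferritin heavy chain, whose ferroxidase centre oxidises iron on entry into the shell, came from one of the most abundant transcripts of the cord. Fth1 (chr19:9980598-9985098) ranked between 1 and 4 in FPKM in every library and made up 2.26 ± 0.0928% of all fragments in vehicle cords, compared with 2.67 ± 0.245% after imiquimod (SD, n = 3 each). Vehicle mice had 6825, 6546 and 7182 FPKM, and imiquimod mice had 8755, 7443 and 7267 FPKM. The groups did not overlap, but the lowest imiquimod value lay close to the highest vehicle value, and the change of 0.19 ± 0.17 did not pass (limma adjusted p = 0.496). The fit of Fth1 depended on the analysis. Its SE was 0.0702 with libraries rescaled to the same sum, 0.0926 with voom and 0.586 with no filter on low values. Its log2 change was 0.48 with quantile normalization. None of 17 alternatives called it (limma adjusted p from 0.109 to 0.896). Ferritin light chain, which aids mineralisation of the iron core, was far lower per kilobase in the deposited values. How fragments shared with its processed copies enter that level is not known. Ftl1 (chr7:45457944-45459884) was 72.2, 75.1 and 83.1 FPKM in vehicle and 131, 101 and 127 FPKM in imiquimod mice. Every imiquimod value was above every vehicle value, and the change was 0.64 ± 0.11 (limma adjusted p = 0.0146). Leaving out vehicle replicate 1 (0.0679) or 2 (0.0598) lost that call.

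The ratio of Fth1 to Ftl1 FPKM compares the deposited values of both genes within each library, and is no measure of the chains in the ferritin shell. It was 94.5, 87.2 and 86.4 in vehicle and 66.7, 73.4 and 57.0 in imiquimod mice, or 89.4 ± 4.49 against 65.7 ± 8.23 (SD, n = 3 each). The groups did not overlap (p = 0.1 in a two-sided exact permutation test, which cannot go lower with 3 mice a group). Both genes have processed copies in the genome, and the treatment of fragments with several matches is not given in the sources used here. Of 15 further rows with ferritin symbols, 11 were at 0 in every library. Ftl1-ps1, a Ftl1 copy annotated as protein coding, was listed at 2.05 ± 0.0759 against 4.47 ± 0.893 FPKM and was higher as well (1.07 ± 0.15, limma adjusted p = 0.0067), and no other copy exceeded 0.648 FPKM. Gapdh, another gene with many processed copies, reached 26.4 FPKM in imiquimod replicate 3, while the other 5 libraries had 1.56 to 2.15 FPKM. Without that library Ftl1 was still called (0.59, limma adjusted p = 0.0482). The part of shared fragments in the Ftl1 values, and so in the level of the ratio, was not tested.

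**Figure D2:**
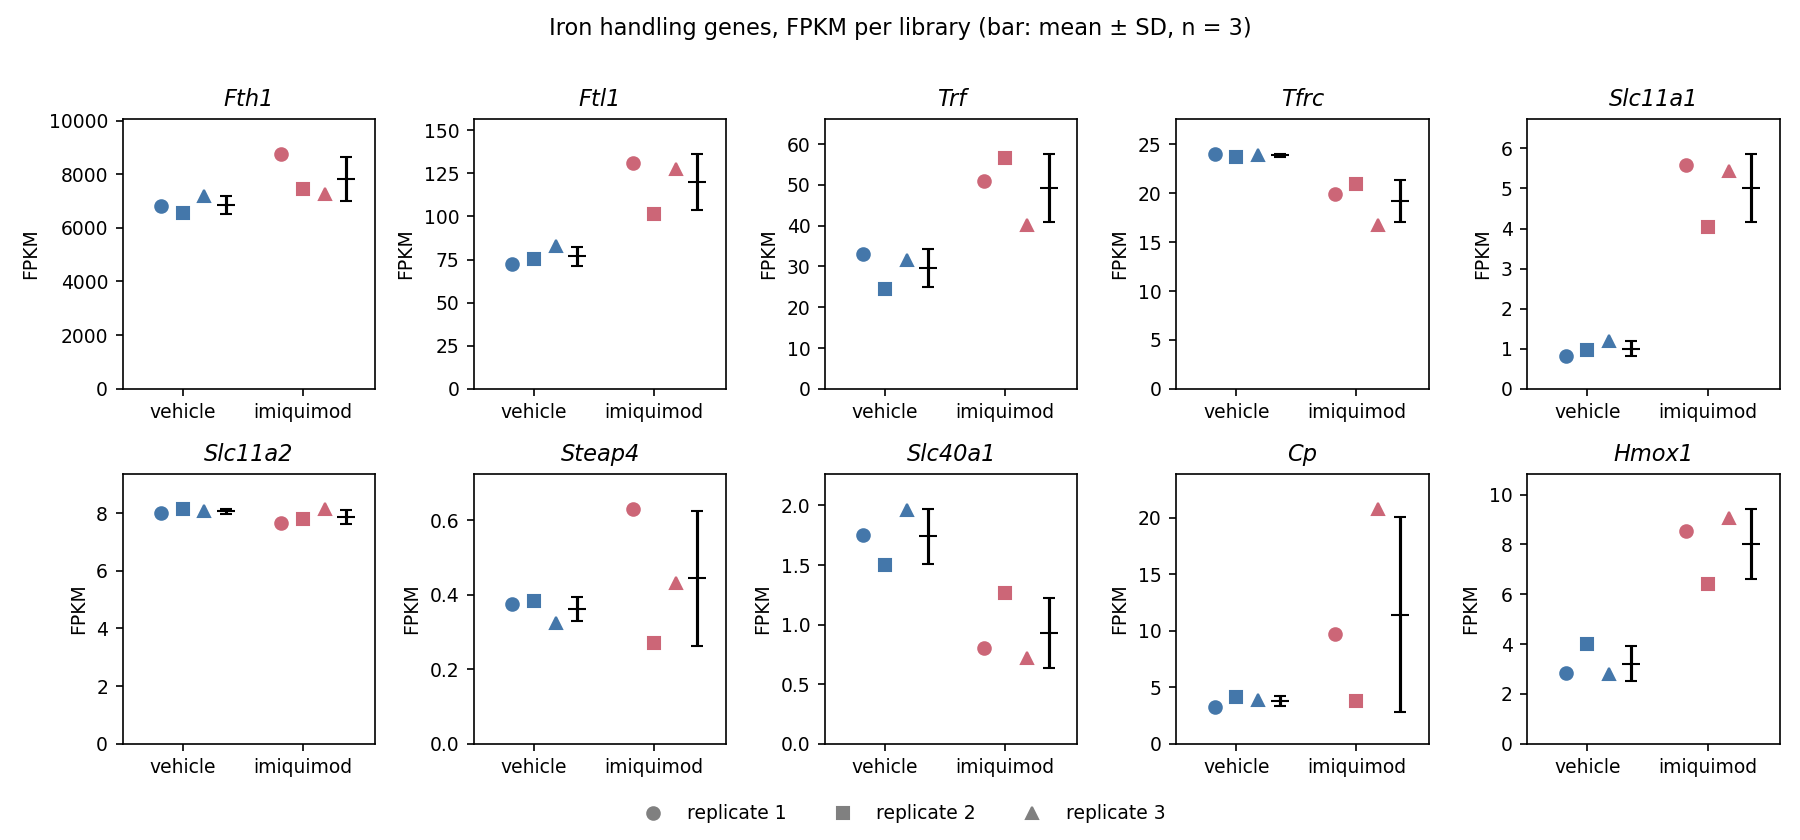
FPKM of each of the 10 members (y axis, linear and starting at 0, with its own scale per panel) in the 3 vehicle and 3 imiquimod libraries, with symbols for the replicate number and bars for mean ± SD. The groups are apart for Fth1, Ftl1, Trf, Tfrc, Slc11a1, Slc40a1 and Hmox1, and overlap for Slc11a2, Steap4 and Cp.

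Among the genes grouped here under uptake, Slc11a1 changed most. It encodes Nramp1, a metal transporter of the phagosome membrane in macrophages and neutrophils that draws divalent metals out of the phagosome. Slc11a1 (chr1:74375195-74386062) was 0.824, 0.978 and 1.2 FPKM in vehicle and 5.58, 4.04 and 5.43 FPKM in imiquimod mice. The lowest imiquimod value was far above the highest vehicle value. The mean rose 5.01-fold, from 1 ± 0.19 to 5.02 ± 0.845 FPKM (SD, n = 3 each), and the log2 change was 2.22 ± 0.18 (limma adjusted p = 0.00106). It was the 72nd smallest p of the genes tested, and all 17 alternative analyses called it (adjusted p from 6.03e-04 to 0.00963). Its paralog Slc11a2, the divalent metal transporter Dmt1 that moves iron out of endosomes, was not called. Slc11a2 (chr15:100387898-100425072) was 7.99, 8.15 and 8.06 FPKM in vehicle and 7.67, 7.80 and 8.13 FPKM in imiquimod mice, with overlapping groups and a change of -0.04 ± 0.06 (limma adjusted p = 0.727). The ratio of Slc11a1 to Slc11a2 FPKM went from 0.124 ± 0.0232 to 0.638 ± 0.107 (two-sided exact permutation p = 0.1, the smallest possible).

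Markers of phagocytes moved together with Slc11a1 in part. Of 6 microglia markers 1 was higher, and their summed FPKM was 75.4 to 86.6 in vehicle and 90.1 to 120 in imiquimod mice. The summed level of 5 monocyte markers, of which 4 were higher, was 8.93 to 17.5 against 25.5 to 75.1 FPKM. Of 8 neutrophil markers 1 was higher (Csf3r). S100a8, S100a9, Camp and Ngp had a negative and Retnlg a positive log2 change, none of them called. The neutrophil sum was 21.6, 80.7 and 29.5 FPKM in vehicle and 29.5, 34.0 and 23.4 FPKM in imiquimod mice. No marker of these lists was at 0 in every library. Their part in the rise of Slc11a1 was not tested.

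Transferrin was higher in the imiquimod cords. Trf, the iron carrier of plasma and brain fluid (chr9:103204001-103230444), was 33.1, 24.4 and 31.7 FPKM in vehicle and 51.1, 56.6 and 40.2 FPKM in imiquimod mice. The groups did not overlap, and the log2 change was 0.73 ± 0.16 (limma adjusted p = 0.0286). Leaving out imiquimod replicate 3 kept the call, while leaving out any other library lost it (adjusted p from 0.0506 to 0.08), as did an analysis with no filter on low values (0.0558). The summed level of 6 oligodendrocyte markers was 7503 to 8026 FPKM in vehicle and 4862 to 6331 FPKM in imiquimod mice, and none of the 6 was at 0 in every library or called by limma, with 2 at an unadjusted p under 0.05 and 2 called lower by voom. Its part in the Trf values was not tested. Markers of choroid plexus and liver, which also make transferrin, were near 0, with sums of 0.291 to 0.58 FPKM over 4 genes and 0.494 to 1.2 FPKM over 3 genes across all libraries. Otx2, a choroid plexus transcription factor, was at 0 in all 6 libraries. The part of choroid plexus and liver in the Trf values was not tested either.

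Tfrc, transferrin receptor 1 (chr16:32608920-32632794), was 24.0, 23.7 and 23.9 FPKM in vehicle and 20.0, 20.9 and 16.8 FPKM in imiquimod mice. All imiquimod values lay below all vehicle values, which were within 1.01-fold of each other. The change of -0.32 ± 0.09 missed the threshold (limma adjusted p = 0.058). It passed without imiquimod replicate 2 (0.0323), with libraries rescaled to the same sum (0.0451), with quantile normalization (0.0381), with library weights (0.0381) and with voom on recovered fragments (0.0448). Endothelial markers, of which 4 of 6 were higher and 1 was lower, summed to 110 to 126 FPKM in vehicle and 213 to 242 FPKM in imiquimod mice, and none was at 0 in every library. Their part in the Tfrc values was not tested. Steap4, a metalloreductase that readies iron and copper for uptake (chr5:7960457-7982213), was too low to be tested. Its values were 0.376, 0.383 and 0.324 FPKM in vehicle and 0.63, 0.269 and 0.432 FPKM in imiquimod mice, from 19 to 41 fragments per library, and the groups overlapped. With no filter on low values its limma adjusted p was 0.787, and without imiquimod replicate 2, where its mean passed the minimum, 0.394.

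Ferroportin, the only known cellular exporter of iron, was the single member called lower with all libraries. Slc40a1 (chr1:45908068-45926523) was 1.75, 1.5 and 1.97 FPKM in vehicle and 0.803, 1.27 and 0.72 FPKM in imiquimod mice. The groups did not overlap, with imiquimod replicate 2 next to vehicle replicate 2. The mean went from 1.74 ± 0.232 to 0.93 ± 0.295 FPKM (SD, n = 3 each) and the log2 change was -0.87 ± 0.22 (limma adjusted p = 0.0464). The call lies just inside the threshold. Leaving out imiquimod replicate 2 lowered adjusted p to 0.0118, and leaving out any other library lost the call (0.0905 to 0.148). It was lost with no filter on low values (0.0937) and with libraries rescaled to the same sum (0.0512). Markers of border macrophages, which line vessels and meninges, moved the same way. Of 6, Mrc1, Cd163 and Pf4 were lower and none was at 0 in every library, and the summed level was 7.68 to 12.5 FPKM in vehicle and 1.46 to 7.01 FPKM in imiquimod mice. Within the imiquimod group the order differed, since replicate 2 had the highest Slc40a1 and the lowest marker sum. The part of these cells in the Slc40a1 values was not tested.

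Ceruloplasmin, the ferroxidase that works beside ferroportin and is made by astrocytes in a membrane-anchored form, varied more between imiquimod mice than any other member. Cp (chr3:19957054-20009145) was 3.29, 4.17 and 3.88 FPKM in vehicle and 9.70, 3.74 and 20.8 FPKM in imiquimod mice. Imiquimod replicate 2 lay within the vehicle range, and the other 2 imiquimod mice lay above it. The highest imiquimod value was 5.55 times the lowest, compared with 1.27 times in vehicle. The change of 1.26 ± 0.54 missed the threshold (limma adjusted p = 0.173) with all libraries and passed it once imiquimod replicate 2 was left out (1.89, adjusted p = 0.0127). Leaving out imiquimod replicate 3, the highest, lowered the change to 0.67 (adjusted p = 0.313). Lcn2, a protein that binds bacterial iron carriers, showed the same order within the imiquimod group, at 9.63, 2.97 and 20.4 FPKM against 0.495, 2.98 and 0.897 FPKM in vehicle. It did not pass either (2.80 ± 0.81, limma adjusted p = 0.063), except without imiquimod replicate 2 (0.0229). Markers of meningeal fibroblasts followed that order too. The 5 markers, none of them at 0 in every library, called by limma or voom, or at an unadjusted p under 0.05, summed to 35.1, 11.1 and 90.0 FPKM in the imiquimod and 27.7 to 55.1 FPKM in the vehicle mice. Schwann cell markers, found in attached nerve roots, summed to 80.0, 1.76 and 155 FPKM in the imiquimod and 136 to 221 FPKM in the vehicle mice, with imiquimod replicate 2 far below every other library. Of the 4, none was at 0 in every library and none of the 3 tested was called by limma or voom or had an unadjusted p under 0.05. Of the 6 astrocyte markers 1 was higher and 2 were lower. Their sum was 920, 1015 and 865 FPKM in the imiquimod and 911 to 965 FPKM in the vehicle mice. The part of astrocytes, meninges and roots in the Cp values was not tested.

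**Figure D3:**
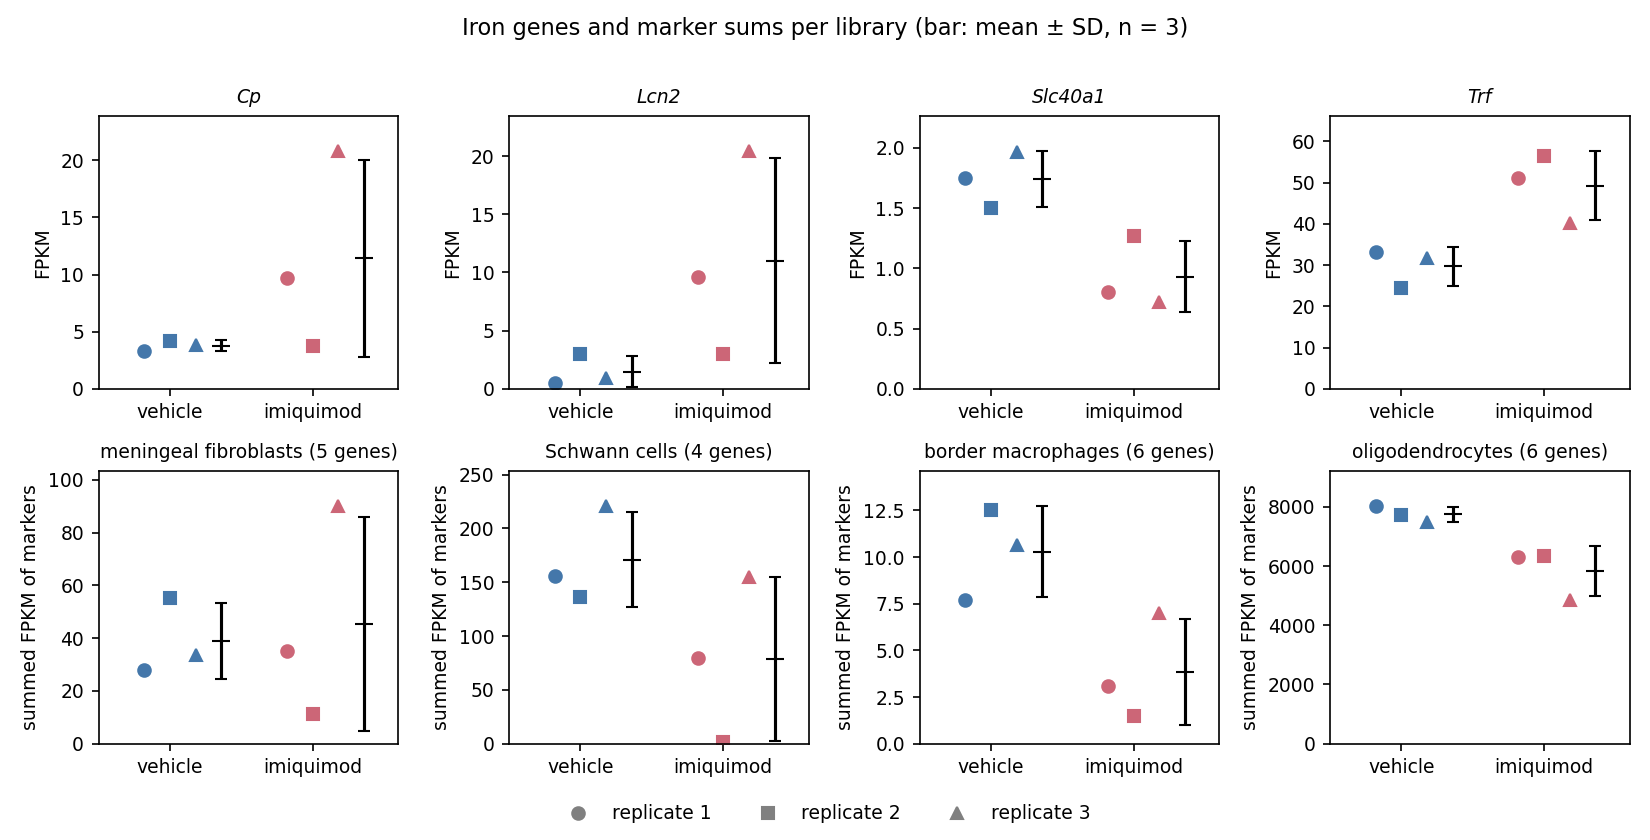
FPKM of Cp, Lcn2, Slc40a1 and Trf (top row) and summed FPKM of marker lists (bottom row) in each library, with mean ± SD, on linear axes that start at 0. In the imiquimod group replicate 2 is lowest and replicate 3 highest for Cp, Lcn2, the meningeal fibroblast sum and the Schwann cell sum.

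Heme oxygenase 1, the inducible enzyme that opens heme and frees its iron, was the second member called in every alternative. Hmox1 (chr8:75093621-75100589) was 2.84, 4.01 and 2.80 FPKM in vehicle and 8.56, 6.41 and 9.08 FPKM in imiquimod mice. All imiquimod values were above all vehicle values. The mean rose 2.49-fold, from 3.22 ± 0.685 to 8.02 ± 1.41 FPKM (SD, n = 3 each), and the log2 change was 1.29 ± 0.18 (limma adjusted p = 0.0067, and 0.00429 to 0.0324 over 17 alternatives). Cd163, the macrophage receptor that takes up hemoglobin bound to haptoglobin, went the other way, from 1.3 ± 0.206 to 0.449 ± 0.214 FPKM (-1.41 ± 0.31, limma adjusted p = 0.0286). Leaving out any vehicle library, or imiquimod replicate 1, lost its call (0.0736 to 0.105), as did an analysis without the filter (0.0577), and a pseudocount of 1 shrank the change to -0.67. Hmox2, the constitutive form, was 29.7 to 32.9 FPKM in vehicle and 29.6 to 35.7 FPKM in imiquimod mice and was not called (0.05 ± 0.09, limma adjusted p = 0.721). The biliverdin reductase genes Blvra (0.10 ± 0.06) and Blvrb (0.10 ± 0.10) did not pass either. Red cell and reticulocyte markers summed to 125 to 491 FPKM in vehicle and 44.7 to 155 FPKM in imiquimod mice, and of the 7 none was at 0 in every library and none of the 6 tested was called by limma or voom, with 5 at an unadjusted p under 0.05.

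**Figure D4:**
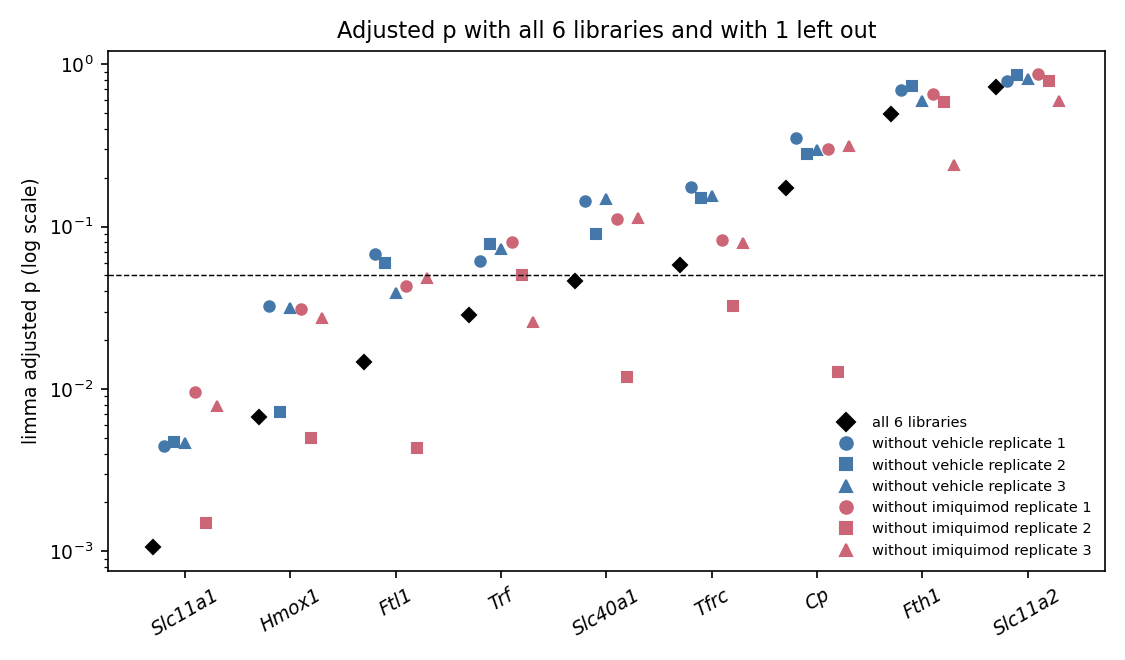
Limma adjusted p (y axis, log scale) of the 9 tested members with all 6 libraries and with 1 library left out, with the threshold of 0.05 as a dashed line. Slc11a1 and Hmox1 lie under the line in every case, and Cp and Tfrc cross it only without imiquimod replicate 2.

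The imiquimod mice were not equally far from the vehicle mice. For 5 of the 7 members whose groups did not overlap (Ftl1, Slc40a1, Tfrc, Slc11a1 and Hmox1), replicate 2 was the imiquimod library nearest the vehicle mean. For Fth1 and Trf it was replicate 3. Over all genes tested, imiquimod replicate 2 also correlated most with each vehicle library (0.9416 to 0.9515). Imiquimod replicates 1 (0.9259 to 0.9372) and 3 (0.9202 to 0.9359) correlated less, so this order is not particular to the members.

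A wider list of 99 iron genes, ordered by role and holding the 10 members, gave 88 tested genes, of which 8 were higher and 3 lower, with a median log2 change of 0.05. Without the members the counts were 4 higher and 2 lower of 79, beside 8.74% and 5.34% over all genes. The median log2 change of those 79 was 0.04. The counts for the whole list fell to 3 higher and 0 lower without vehicle replicate 1 or 2. The lower count was 0 without vehicle replicate 3, 1 without imiquimod replicate 1 or 3, and 5 without imiquimod replicate 2. In ferritin storage and turnover Ftl1 was the single call of 5 tested. Ncoa4, the receptor that delivers ferritin to lysosomes, was 6.37 ± 0.0833 against 6.06 ± 0.695 FPKM (limma adjusted p = 0.617). Of 13 tested genes grouped under uptake only Slc11a1, of the phagosome membrane, and Trf, a carrier, were called. Of 3 tested genes of export and oxidation only Slc40a1 was called, while Heph, a ferroxidase related to ceruloplasmin, did not pass (-0.08 ± 0.12). In heme breakdown and transport 1 of 11 was higher (Hmox1) and 1 lower (Cd163).

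Heme synthesis had 1 higher and 1 lower gene among 9. Alas1, the rate-limiting enzyme outside red cells, was 7.21 ± 0.65 against 10.2 ± 0.635 FPKM (0.49 ± 0.09, limma adjusted p = 0.0153), a call lost on leaving out vehicle replicate 1 (0.0633) or 2 (0.0609). Cpox, a later enzyme, was 19.2 ± 1.08 against 14.7 ± 1.41 FPKM (-0.39 ± 0.09, limma adjusted p = 0.0304). That result held on leaving out imiquimod replicate 2 but no other library, and was lost without the filter (0.0522). Alas2, the red cell form, was 4.61, 2.44 and 1.38 FPKM in vehicle and 0.484, 0.856 and 2.32 FPKM in imiquimod mice, without a call (limma adjusted p = 0.212). Of 12 genes of mitochondrial iron and iron-sulfur clusters 1 was higher, Slc25a28, which brings iron into mitochondria, at 21.5 ± 1.39 against 29.1 ± 4.03 FPKM (0.43 ± 0.11, limma adjusted p = 0.0469). The call held on leaving out imiquimod replicate 2 but no other library, and was lost without the filter (0.0838) and with the length and GC trend removed (0.0589).

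Iron sensing and the hepcidin axis had 2 higher genes of 15 tested. Hfe, an MHC class I-like partner of the transferrin receptors that takes part in iron sensing, was 2.88, 3.11 and 3.26 FPKM in vehicle and 5.06, 4.37 and 5.39 FPKM in imiquimod mice. Its groups did not overlap, and it was called in all 17 alternatives (0.66 ± 0.10, limma adjusted p = 0.0094). Id1, a target of BMP signalling, was 22.4 ± 3.72 against 33.6 ± 3.98 FPKM (0.59 ± 0.14, limma adjusted p = 0.0344), a call kept in 2 of the 6 analyses with 1 library left out (without vehicle replicate 3 or imiquimod replicate 2) and lost without the filter (0.065). Hamp, the gene of hepcidin, the hormone that removes ferroportin from the cell surface, was at 0 in 5 libraries and at 0.281 FPKM in vehicle replicate 2. The iron regulatory protein genes Aco1 (-0.19 ± 0.06, limma adjusted p = 0.0807) and Ireb2 (-0.12 ± 0.08, limma adjusted p = 0.343) did not pass, though Aco1 did with quantile normalization (0.0403) and with the length and GC trend removed (0.0325). None of 3 siderophore genes and none of 7 genes of ferroptosis and lipid peroxide defence was called at the limma threshold, with unadjusted p under 0.05 for 1 and 2 of them, and voom called 0 and 1 (Tfrc). Of 15 antioxidant response genes that the factor Nrf2 is known to control or that control it, Hmox1 and Ftl1 were higher. The other 13 did not pass, among them Nqo1 (-0.01 ± 0.14) and Gclm (0.07 ± 0.07). Over the 15 the median log2 change was 0.18, against -0.01 over all genes tested. In 9 of the 15 every imiquimod value lay above every vehicle value, among them the members Fth1, Ftl1 and Hmox1. The list was chosen with earlier results of these data known, so its count and median are no independent result. Groups did not overlap, in either direction, in 37.9% of all genes tested, and the share with imiquimod above was not computed.

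**Figure D5:**
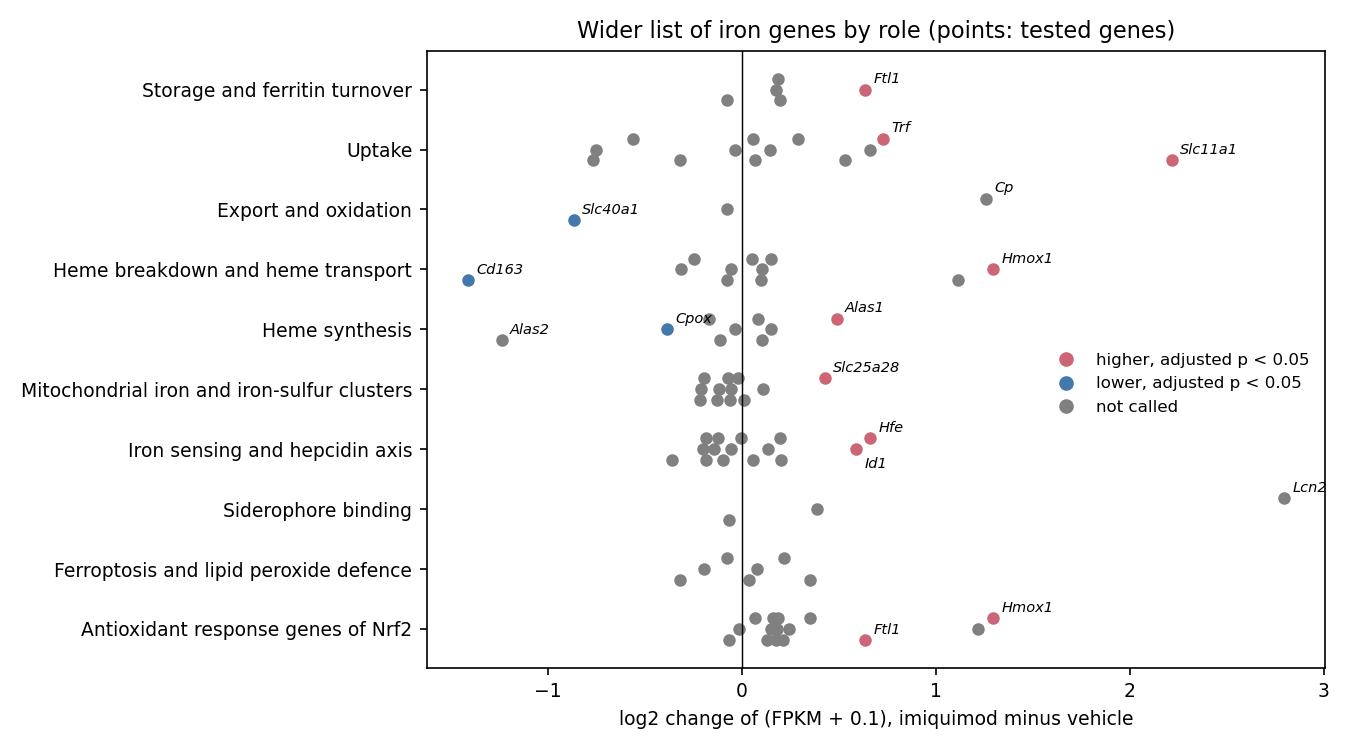
Log2 change of (FPKM + 0.1), imiquimod minus vehicle (x axis), of each tested gene of the wider list, in rows by role, coloured by call. Called genes are few in each row, 2 at most, and Lcn2 and Cp lie far right without a call.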

How the data were processed

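RNA from 6 cervical spinal cords (3 vehicle, 3 imiquimod) was sequenced, 1 library per mouse. The deposited values are FPKM per Ensembl gene, 1 table per library. Per the submitters' processing notes, HISAT2 2.0.5, featureCounts 1.5.0-p3, DESeq2 1.16.1 and mm10 were used, with roles, annotation release, strand and treatment of multiply matching fragments not given in the sources used here. The FPKM unit was inferred from the values: multiplied by exon length (GENCODE M21), 97.4% to 97.6% of values under 1000 fragments were whole multiples of 1 step per library, within 0.05 fragment. Fragment numbers come from this step.

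Groups were compared with limma 3.58.1 in R 4.3.3 (lmFit and eBayes with a trend) on log2(FPKM + 0.1) for the 16513 genes with a mean of at least 0.5 FPKM in either group, with Benjamini-Hochberg adjustment over all of them. The code was tested on simulated data. Ratios and marker sums were compared with two-sided exact permutation tests, for which p cannot go below 0.1. UTR elements were read from GENCODE M21 transcripts (GRCm38) and promoter windows from RefSeq (GRCm38.p6), which covered 6 of the 10 members.

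All 10 members were named. From the wider list, up to 4 called genes per role with the smallest p were named, plus Lcn2, Hamp, Ncoa4, Aco1 and Ireb2. Hmox2, Blvra, Blvrb, Heph, Alas2, Nqo1, Gclm, Ftl1-ps1 and Gapdh were added after their values were seen. For the member with the smallest p, the 3 genes nearest in z-scored log2 values were named. The members and lists were chosen with earlier results of these data known. The 17 alternatives changed the pseudocount (0.01 or 1), the filter, the scaling, a length and GC trend, the replicate block, library weights or the tool (voom), or left out 1 library.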

Additional observations from a re-analysis of the deposited data

How the results depend on the processing

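Slc11a1, Hmox1 and Hfe were called in all 17 alternatives, and Fth1 in none. Replicate numbers did not pair the libraries (correlations of same-numbered deviations 0.0186, -0.0970 and -0.0331). With the replicate block 894 genes were higher and 436 lower, 3 members were higher and 0 lower, and 4 genes of the wider list were higher and 1 lower. Slc40a1 had a limma adjusted p of 0.103 and Trf of 0.0664 in that fit. Calls of Alas1 (0.0538), Cpox (0.0649), Slc25a28 (0.0612) and Id1 (0.0531) were lost as well. The block with the length and GC trend removed also left 0 members lower, and lost the calls of Slc40a1 (0.106), Trf (0.076), Alas1 (0.0709), Cpox (0.0529) and Slc25a28 (0.0529). Without a filter on low values there were 508 lower genes, 0 members were lower, and 5 genes of the wider list were higher and 0 lower. Quantile normalization, library weights and voom each gave 2 lower members, with 8, 6 and 7 lower genes of the wider list. Removing the length and GC trend gave 5 lower genes of that list, and turned the log2 change of Ncoa4 to 0.0111 and of Ireb2 to 0.0103, with or without the block. Leaving out 1 library gave 660 (without vehicle replicate 1) to 1690 (without imiquimod replicate 2) higher genes and 187 to 1296 lower genes, the extremes coming from the same libraries. For the members this gave 2 to 4 higher and 0 to 2 lower, and for the wider list 3 to 10 higher and 0 to 5 lower. The log2 difference of the Fth1 to Ftl1 ratio ranged from -0.53 to -0.35, and that of the Slc11a1 to Slc11a2 ratio from 2.24 to 2.51. Depth limits Steap4 most, with 62 fragments over the vehicle and 92 over the imiquimod libraries.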

Other observations

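The 3 genes whose pattern over the 6 libraries was nearest to that of Slc11a1, by Euclidean distance between z-scored log2(FPKM + 0.1) values, were Ptpn6, Capg and Apod. Ptpn6, a tyrosine phosphatase of blood cells (distance 0.110), was 1.65, 2.01 and 2.19 FPKM in vehicle and 10.4, 7.10 and 10.1 FPKM in imiquimod mice. Capg, an actin-capping protein abundant in macrophages (distance 0.112), was 2.23, 2.82 and 3.46 FPKM in vehicle and 16.1, 12.7 and 17.7 FPKM in imiquimod mice. Apod, apolipoprotein D, a lipid carrier (distance 0.118), was 236, 258 and 291 FPKM in vehicle and 1046, 862 and 1093 FPKM in imiquimod mice. In each of the 3 genes, as in Slc11a1, imiquimod replicate 2 was the lowest of its group and vehicle replicate 1 the lowest of all. The genes were selected for their likeness to this pattern, so the shared order is no further result.

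RefSeq promoter windows of 250 bases before to 50 after a start (GRCm38.p6) were at hand for 6 members, in 9 windows (Slc11a1, Cp, Steap4, Ftl1, Tfrc and Fth1). They were searched on both strands for TGACNNNGC (antioxidant response element), the core of the interferon-stimulated response element and TTCNNNGAA (STAT site), which 12.4%, 3.44% and 8.30% of 32851 windows hold. The single match was TTCCCGGAA in the Steap4 window, 116 bases before the start, in a gene too low here to be tested.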
